A study of Mus musculus with 12 samples.

Results

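Cpxm2, Cpxm1, Cpz, Cpe, Cpd, Cpm and Aebp1 are 7 mouse genes of the N/E group of metallocarboxypeptidases, taken here by name out of the 49585 genes counted in the study. They were followed across 4 populations of bone and bone marrow stromal cells, all labelled as steady state. The cells were sorted from 8- to 10-week-old male wild-type C57BL/6 mice, with 3 RNA-seq libraries of 2000 cells per population and 12 in all. All 4 populations were CD45-Ter119-CD31-. Itga8+ mesenchymal stem cells (MSCs) were Itga8+Alcam+Sca-1-, Itga8-Alcam+ bone-lining cells (BLCs), which the labels call osteoblasts, lacked Itga8, and Sca-1+ MSCs, called Sca-1+ cells from here on, were Alcam-Sca-1+. These 3 populations came from collagenase-digested bone fragments from which the marrow had been flushed, and the CD51+CD140a+ MSCs came from the flushed marrow, digested with Accumax. Isolation and population can therefore not be told apart in any comparison with CD51+CD140a+ MSCs. No source used here states whether the 3 libraries of a population came from separate mice or pools, so p-values measure only the spread between these libraries.

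Members of this family remove lysine or arginine from the C-terminal end of peptides, or carry the fold of such an enzyme without the activity. Carboxypeptidase E (Cpe) trims prohormone fragments in secretory granules after proprotein convertases have cut them, carboxypeptidase D (Cpd) does so in the trans-Golgi network, and carboxypeptidase M (Cpm) sits on the cell surface, where it acts on kinins and anaphylatoxins. Carboxypeptidase Z (Cpz) is secreted, binds the extracellular matrix and carries a Frizzled-like domain. Cpxm1, Cpxm2 and Aebp1, which encodes the collagen-binding protein ACLP, join a discoidin domain to a carboxypeptidase-like domain for which no activity on standard substrates is known.

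A difference between the enzymes and some of their inactive relatives can be read in the coding sequence. The 30 coding bases around the catalytic glutamate of the fold are printed below for every member, 5′ to 3′ on the coding strand of the GENCODE M21 transcript, with the codon at that position in capitals. They are shown because they separate Cpxm2 and Aebp1 from the rest.
Cpe: aactgcttcgagatcactgtgGAGcttagc
Cpz: aactgctttgagatcactgtgGAActgggc
Cpm: cagtgctttgaaattaccctgGAGctgtcg
Cpd, repeat 1: aactgttttgagatcacattaGAAttgtct
Cpd, repeat 2: aattgctttgaagtaactatcGAActcggt
Cpxm1: aattgctttgaggtcacagtgGAGctgtcc
Cpxm2: aactgctttgagctgtccatcTACgtgggc
Aebp1: aactgtctggagctctccgtaTACctgggc
The codon encodes glutamate in Cpe, Cpz, Cpm, Cpxm1 and both Cpd repeats that held the motif, and tyrosine in Cpxm2 and Aebp1. Cpxm1 thus keeps the glutamate codon that Cpxm2 and Aebp1 lack. In Cpxm2 it is codon 618 of 764 and lies at chr7:132049076-132049078 on the minus strand, in coding exon sequence (exon 12 of 14) of the GRCm38 (mm10) genome. In Aebp1 it is codon 865 of 1128 at chr11:5870564-5870566 on the plus strand, in exon 19 of 21. In Cpe it is codon 342 of 476 at chr8:64606690-64606692 on the minus strand, in exon 6 of 9.

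The zinc-binding stretch of the same fold is kept in all 7 coding sequences. It is shown for Cpxm2 and Aebp1 beside Cpe, with the 4 codons of the histidine-to-glutamate motif in capitals.
Cpe: attgggaacatgCATGGTAATGAGgcggtt
Cpxm2: atcgcaggggccCACGGCAATGAGgttctg
Aebp1: acagccgggatcCACGGCAATGAGgtgcta
These codons lie at chr8:64619504-64619515 (exon 2), chr7:132059887-132059898 (exon 9) and chr11:5869446-5869457 (exon 16). The windows describe the reference genes and were not read from the libraries.

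The genes are spread over the genome, and 6 of the 7 overlap no exon of another gene. Cpxm2 (ENSMUSG00000030862) spans chr7:132032687-132154739, and 7.59% of its exon bases lie opposite an antisense gene, Gm15677. Cpxm1 (ENSMUSG00000027408) is at chr2:130390775-130397574, Cpz (ENSMUSG00000036596) at chr5:35502218-35525698 and Cpe (ENSMUSG00000037852) at chr8:64592542-64693054, all on the minus strand like Cpxm2. Cpd (ENSMUSG00000020841) is at chr11:76778424-76847018 on the minus strand. Cpm (ENSMUSG00000020183), at chr10:117629500-117687352, and Aebp1 (ENSMUSG00000020473), at chr11:5861947-5872088, are on the plus strand. Their exon lengths run from 2245 bases for Cpz to 8332 for Cpd.

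Library totals ranged from 17580677 to 31332475 counts, and 3 counts, the floor used here, corresponded to 0.0820 to 0.180 CPM, the count scaled to a common library size by the TMM method. RNA of the sorting antigens was checked against the gates. Itga8 was 35.2 to 199 CPM in Itga8+ MSCs, at most 4.17 in Itga8- BLCs and Sca-1+ cells, and 53.1 to 82.9 in CD51+CD140a+ MSCs. Alcam was 1.29 to 5.82 CPM in the 2 Alcam+ populations and at most 0.221 in the others. Ly6a, which encodes Sca-1, was 611 to 659 CPM in Sca-1+ cells and at most 35.7 elsewhere. Pdgfra, which encodes CD140a, was 682 to 867 CPM in CD51+CD140a+ MSCs but also 734 to 1019 in Sca-1+ cells, and at most 148 in the others, and Itgav, which encodes CD51, was 121 to 195 CPM in CD51+CD140a+ MSCs and 12.7 to 150 elsewhere. Osteoblast markers, 9 genes summed, ranged from 36861 to 115155 CPM in Itga8- BLCs and from 697 to 19490 elsewhere. The 6 LepR+ stromal markers summed to 44723 to 61184 CPM in CD51+CD140a+ MSCs and at most 740 elsewhere. Itga8+ replicate 2 stood apart, with 5055 CPM of 10 myeloid and lymphoid markers, led by Lyz2 and S100a8, against 378 and 935 in replicates 3 and 1. Its 5 erythroid markers summed to 802 CPM, against 76.2 and 106 in those libraries and at most 269 in any other population. Its osteoblast markers summed to 697 CPM, against 7980 and 6962 in replicates 3 and 1. Of these sums Col1a1 held 213 CPM, against 7217 and 5952. Alpl, Sp7, Dmp1 and Phex were also lowest in replicate 2. Bglap and Bglap2 were highest there (Bglap2 at 10.2 CPM, against 0.751 and 3.46), and Ibsp and Runx2 lay between the other libraries. The libraries of Itga8+ MSCs and Itga8- BLCs also differed in the balance of long and short genes. Genes with a transcript of at least 6000 bases, set against those of at most 1500, were 1.73 lower (log2) than the population's mean in Itga8+ replicate 2 and 1.13 lower in Itga8- replicate 3. They were 1.37 higher in Itga8+ replicate 3 and 1.32 higher in Itga8- replicate 2, and within 0.33 in every library of Sca-1+ cells and CD51+CD140a+ MSCs. In bulk samples like these, fewer cells of a type and less RNA per cell cannot be told apart.

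**Figure D1:**
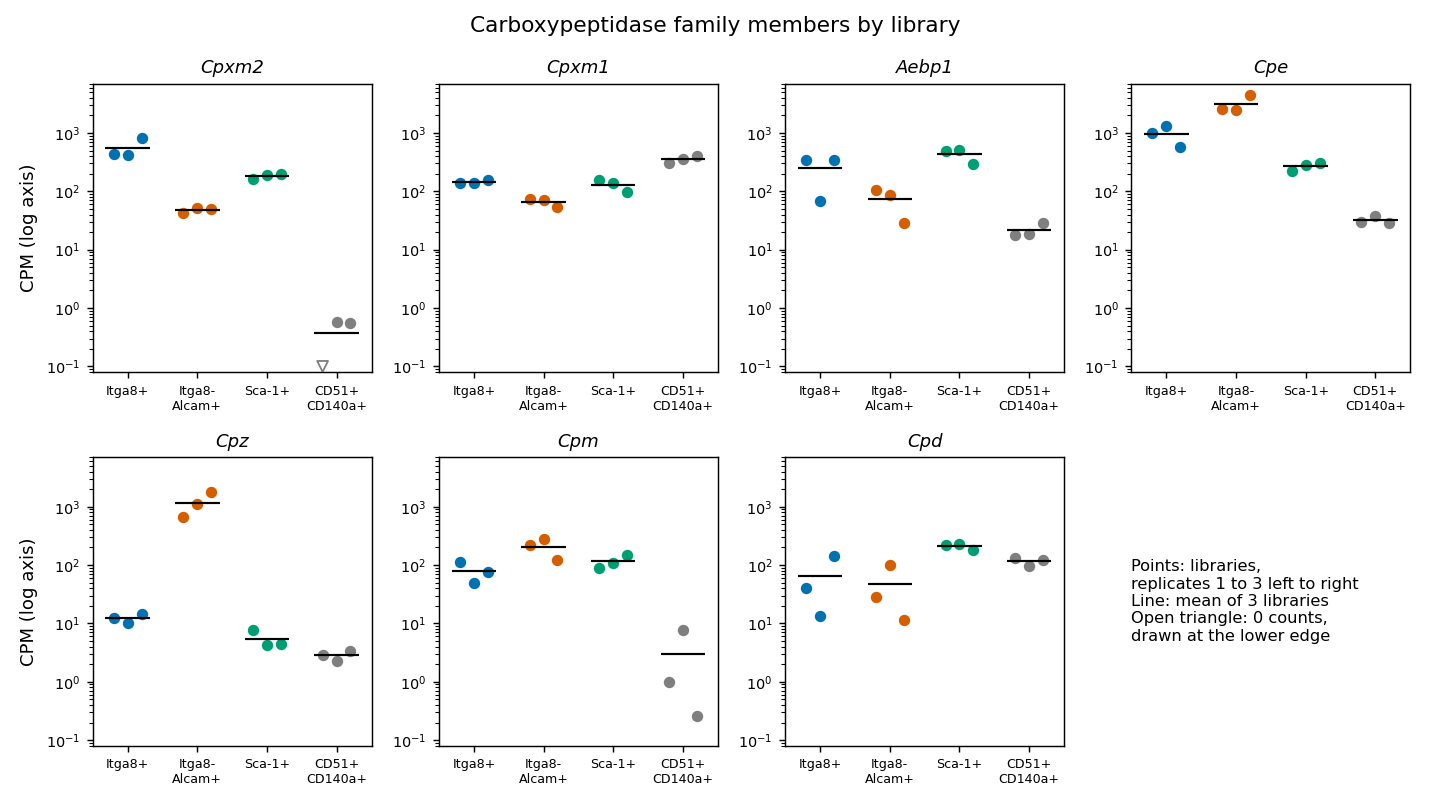
CPM of each member (log axis) in the 12 libraries, with replicates 1 to 3 from left to right in each population and a line at the mean. Cpxm2 runs from 806 CPM in an Itga8+ library to 0 in a CD51+CD140a+ library, whereas Cpz is above 600 CPM only in Itga8- BLCs and Cpxm1 is highest in CD51+CD140a+ MSCs.

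Cpxm2 was highest in Itga8+ MSCs, intermediate in Sca-1+ cells, low in Itga8- BLCs and close to absent in CD51+CD140a+ MSCs. It was selected on its high level in Itga8+ MSCs in these same libraries, so its levels are described here and were not tested. It measured 429, 418 and 806 CPM in the 3 Itga8+ MSC libraries and 164, 194 and 196 CPM in Sca-1+ cells. In Itga8- BLCs it measured 43.3, 51.6 and 49.8 CPM, and in CD51+CD140a+ MSCs 0, 0.573 and 0.548 CPM, from 0, 20 and 17 counts. No library of one population overlapped one of another. Mean levels were 551 ± 221 (SD, n = 3), 185 ± 17.6, 48.2 ± 4.35 and 0.374 ± 0.324 CPM in that order. The ratio of mean CPM was 2.98 for Itga8+ MSCs over Sca-1+ cells and 11.4 over Itga8- BLCs. Over CD51+CD140a+ MSCs the fitted log2 fold change was 10.52 (SE 0.93), a size set by 37 counts in 3 libraries, and it was 9.93 without CD51+CD140a+ replicate 1, which held no count. Without Itga8+ replicate 3, the highest library, the log2 fold change over Sca-1+ cells went from 1.58 to 1.15.

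The gene whose levels ran most like Cpxm2 across the 12 libraries lies opposite it in the genome. Among 12276 genes with at least 5 CPM in 1 population, the highest Pearson r of log2 CPM belonged to Gm15677, the antisense gene opposite some of its exons (r of 0.993), with means of 98.7, 8.46, 29.3 and 0.0693 CPM in Itga8+ MSCs, Itga8- BLCs, Sca-1+ cells and CD51+CD140a+ MSCs. The strand setting of the counting is not given in the sources used here, so reads of Cpxm2 and Gm15677 cannot be told apart where they overlap. Thbs4, a thrombospondin of tendon matrix, was also close to it (r of 0.991; means of 4701, 356, 2176 and 0.225 CPM), as were Fbln7, a fibulin (r of 0.984; 507, 199, 530 and 4.22 CPM), and Ensa, a phosphatase regulator (r of 0.981; 178, 133, 169 and 87.2 CPM). These r describe 12 libraries that fall into 4 populations. The 6 tendon fibroblast markers, of which Thbs4 is one, summed to 12896 to 23551 CPM in Itga8+ MSCs, 6266 to 9352 in Sca-1+ cells, 3788 to 6396 in Itga8- BLCs and 83.4 to 113 in CD51+CD140a+ MSCs. The population means of the sum thus ran in the order of Cpxm2, with an overlap between Sca-1+ cells and Itga8- BLCs, but not every marker did. In CD51+CD140a+ MSCs Tnmd, Scx and Kera were at most 0.13 CPM and Thbs4 at most 0.42, whereas Fmod was 59.7 to 86.5 CPM and Mkx, at 23.4 to 37.0 CPM, was above its 7.32 to 14.9 in Itga8- BLCs. The part of tendon-type cells in the Cpxm2 level was not tested.

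Cpxm1, the closest relative of Cpxm2 in domain makeup, ran in another order. It measured 303, 360 and 407 CPM in CD51+CD140a+ MSCs, 138, 138 and 157 in Itga8+ MSCs, 158, 136 and 97.2 in Sca-1+ cells, and 73.3, 71.0 and 54.6 in Itga8- BLCs. All 3 CD51+CD140a+ libraries were above all others, all 3 Itga8- libraries were below all others, and Itga8+ and Sca-1+ cells overlapped. In edgeR's quasi-likelihood test over 18648 genes, with a call at an adjusted p under 0.1 and a fold above 2, Cpxm1 was higher in CD51+CD140a+ MSCs than in Itga8+ MSCs by 1.30 on the log2 scale (SE 0.26, adjusted p = 0.00316). It was also higher there than in Sca-1+ cells by 1.45 (SE 0.26, adjusted p = 0.00199) and than in Itga8- BLCs by 2.43 (SE 0.27, adjusted p = 5.54e-05). Itga8+ MSCs exceeded Itga8- BLCs by 1.12 (SE 0.26, adjusted p = 0.0436). That call was lost without Itga8- replicate 3 (adjusted p = 0.165) and when only these 2 populations were fitted (adjusted p = 0.301). It was also lost with replicate number as a block (adjusted p = 0.124). Itga8+ and Sca-1+ cells, neighbours in the order, differed by 0.15 (SE 0.26, adjusted p = 0.716), and the sign turned to -0.025 without Sca-1+ replicate 3. Itga8- BLCs were below Sca-1+ cells by 0.98 (SE 0.26, adjusted p = 0.0204), just under the fold needed for a call, and became a call under 7 of the 22 alternatives. Tln2, Fbln5 and Ccbe1 were most like Cpxm1 (r of 0.975, 0.971 and 0.964 over 12 libraries), and Fbln5, an elastic fibre protein, averaged 2872 CPM in CD51+CD140a+ MSCs and at most 196 in the others. The LepR+ markers given above were also highest in CD51+CD140a+ MSCs, and the part of LepR+ cells in the Cpxm1 level was not tested.

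Aebp1 was highest in Sca-1+ cells, with 496, 514 and 292 CPM. It measured 340, 67.1 and 343 CPM in Itga8+ MSCs, 104, 87.6 and 29.0 in Itga8- BLCs, and 17.7, 18.3 and 28.6 in CD51+CD140a+ MSCs. CD51+CD140a+ MSCs lay below every other library, and Itga8+ replicate 2 lay among the Itga8- BLC libraries. Aebp1 was higher in Sca-1+ cells than in CD51+CD140a+ MSCs by 4.33 (log2, SE 0.66, adjusted p = 0.000586). It was higher in Itga8+ than in CD51+CD140a+ MSCs by 3.54 (SE 0.64, adjusted p = 0.00154) and lower in Itga8- BLCs than in Sca-1+ cells by 2.56 (SE 0.61, adjusted p = 0.0118). Itga8- BLCs exceeded CD51+CD140a+ MSCs by 1.77 (SE 0.59, adjusted p = 0.0410), a call lost without Itga8- replicate 1 (adjusted p = 0.140) and without CD51+CD140a+ replicate 1 or 2 (adjusted p = 0.120 and 0.116). Between the 2 Alcam+ populations the difference of 1.77 (SE 0.59) missed the threshold (adjusted p = 0.192), whereas DESeq2 called it (1.79, adjusted p = 0.0510). Without Itga8+ replicate 2, the library with the most myeloid transcripts and the lowest balance of long and short genes in its population, it was 2.24 (adjusted p = 0.0233). Sca-1+ cells and Itga8+ MSCs, neighbours in the order, differed by 0.80 (SE 0.58, adjusted p = 0.351). Sema3f, Gm11747 and Slc20a1 were most like Aebp1 (r of 0.969, 0.965 and 0.961).

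Cpe, the prohormone-trimming enzyme, was highest in Itga8- BLCs, then in Itga8+ MSCs and Sca-1+ cells, and lowest in CD51+CD140a+ MSCs. It measured 2541, 2467 and 4504 CPM in Itga8- BLCs, 985, 1303 and 565 in Itga8+ MSCs, 219, 278 and 307 in Sca-1+ cells, and 29.8, 38.3 and 28.4 in CD51+CD140a+ MSCs. Within both Alcam+ populations its levels fell as the balance of long and short genes given above rose, and the cause was not tested. No 2 populations overlapped, and all 6 comparisons passed. Itga8+ MSCs were below Itga8- BLCs by 1.74 on the log2 scale (SE 0.36, adjusted p = 0.0222), a call lost when only these 2 populations were fitted (adjusted p = 0.182). They were above Sca-1+ cells by 1.83 (SE 0.36, adjusted p = 0.00551) and above CD51+CD140a+ MSCs by 4.89 (SE 0.41, adjusted p = 6.99e-06). Sca-1+ cells exceeded CD51+CD140a+ MSCs by 3.06 (SE 0.37, adjusted p = 0.000119). Cryzl2, Cthrc1 and Ica1 were most like Cpe (r of 0.991, 0.989 and 0.988). Of these, Cthrc1, a secreted collagen triple helix repeat protein, averaged 952, 313, 51.8 and 3.58 CPM in Itga8- BLCs, Itga8+ MSCs, Sca-1+ cells and CD51+CD140a+ MSCs.

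Cpz, the secreted matrix-bound member, had the largest fold among the 6 tested members between the 2 Alcam+ populations. It measured 668, 1097 and 1770 CPM in Itga8- BLCs and 12.3, 10.3 and 14.7 CPM in Itga8+ MSCs. In Sca-1+ cells it measured 7.69, 4.27 and 4.405 CPM, and in CD51+CD140a+ MSCs 2.90, 2.29 and 3.41 CPM. The 3 Itga8- BLC libraries were thus far above the other 9. Cpz was lower in Itga8+ MSCs than in Itga8- BLCs by 6.57 (log2, SE 0.47, adjusted p = 3.40e-05), a ratio of means of 94.8. Itga8- BLCs exceeded Sca-1+ cells by 7.75 (SE 0.49, adjusted p = 4.16e-06) and CD51+CD140a+ MSCs by 8.68 (SE 0.51, adjusted p = 8.77e-07). At the low levels of the remaining populations, Itga8+ MSCs exceeded CD51+CD140a+ MSCs by 2.11 (SE 0.39, adjusted p = 0.00177) and Sca-1+ cells by 1.19 (SE 0.38, adjusted p = 0.0536). The latter call was lost without Sca-1+ replicate 2 (adjusted p = 0.179) or 3 (adjusted p = 0.169) and when only these 2 populations were fitted (adjusted p = 0.112). Sca-1+ cells and CD51+CD140a+ MSCs differed by 0.93 (SE 0.38, adjusted p = 0.127). Hrc, Ranbp3l and Gxylt2 were most like Cpz (r of 0.976, 0.976 and 0.975), and Ranbp3l averaged 22.9 CPM in Itga8- BLCs and at most 0.667 elsewhere. The summed osteoblast markers given above were highest in the same 3 libraries, with Col1a1 at 16656 to 107157 CPM of that sum. Of the 9 markers, Bglap, Bglap2, Dmp1, Sp7 and Alpl were above all other libraries in these 3. Ibsp was highest in CD51+CD140a+ MSCs (6819 to 16048 CPM, against 2628 to 4681 in Itga8- BLCs), Runx2 and Phex overlapped with CD51+CD140a+ MSCs, and Col1a1 with Sca-1+ cells. The part of osteoblasts in the Cpz level was not tested.

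Cpm, the cell-surface enzyme, was present in the 3 bone fractions and low in marrow CD51+CD140a+ MSCs. It measured 222, 275 and 123 CPM in Itga8- BLCs, 88.2, 107 and 152 in Sca-1+ cells, 115, 48.9 and 77.5 in Itga8+ MSCs, and 0.984, 7.80 and 0.258 in CD51+CD140a+ MSCs. Every bone library lay above every marrow library. Over CD51+CD140a+ MSCs, Itga8- BLCs were higher by 6.09 (log2, SE 1.02, adjusted p = 0.000957), Sca-1+ cells by 5.26 (SE 0.98, adjusted p = 0.00251) and Itga8+ MSCs by 4.73 (SE 0.96, adjusted p = 0.00335). CD51+CD140a+ replicate 2 held 272 of the 316 Cpm counts in that population. Without it the 3 differences were 8.35, 7.52 and 6.99 in the same order. No difference among the 3 bone fractions passed the test (adjusted p = 0.495 to 0.684), although the Itga8- BLC libraries lay above the Itga8+ MSC libraries with a difference of 1.36 (SE 0.83, adjusted p = 0.601). Sybu, Cyb561 and Bpifc were most like Cpm (r of 0.983, 0.960 and 0.959).

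Cpd, the trans-Golgi enzyme, had the smallest range of population means among the members, a ratio of 4.48, and varied widely among libraries of both Alcam+ populations. It measured 220, 226 and 180 CPM in Sca-1+ cells and 132, 95.1 and 122 in CD51+CD140a+ MSCs. In Itga8+ MSCs it measured 41.2, 13.7 and 143 CPM, and in Itga8- BLCs 28.7, 99.2 and 11.6 CPM. The SD was 103% and 99.8% of the mean in the latter 2 populations and 11.8% and 16.2% in the former 2. Of the 6 comparisons, 1 passed, with Itga8- BLCs below Sca-1+ cells by 2.16 (SE 0.80, adjusted p = 0.0751). This call was lost in 5 of the 6 fits that left out a library of either population (adjusted p = 0.125 to 0.200), and with replicate number as a block (adjusted p = 0.128). With limma, Cpd was also called lower in Itga8+ MSCs than in Sca-1+ cells (log2 difference of -2.26, adjusted p = 0.0653, against 0.168 with edgeR) and in Itga8- BLCs than in CD51+CD140a+ MSCs (-1.84, adjusted p = 0.0940). Library totals alone also gave the latter call (-1.74, adjusted p = 0.0935). Between Itga8+ MSCs and Itga8- BLCs the difference was 0.50 (SE 0.77, adjusted p = 0.906), and it turned to -0.75 without Itga8+ replicate 3 and was 1.72 without Itga8- replicate 2. Without Itga8+ replicate 3 the Itga8+ MSCs were called lower than Sca-1+ cells (log2 difference of -2.95, adjusted p = 0.0234) and than CD51+CD140a+ MSCs (-2.07, adjusted p = 0.0529). Without Itga8- replicate 2 the log2 differences of Itga8- BLCs from these populations were -3.41 and -2.52, the latter then a call (adjusted p = 0.0344). The Cpd transcript is 7946 bases, and within each population its levels stood in the order of the balance of long and short genes given above. A fit chosen after seeing the data used that balance as a covariate. Cpd is itself one of the long genes and was seen to follow the balance, so the fit lowers its spread by construction and its values are given as a description, with no test. In it the log2 differences of Cpd from Sca-1+ cells were -2.21 in Itga8+ MSCs and -2.71 in Itga8- BLCs, and those from CD51+CD140a+ MSCs were -1.36 and -1.86. Arhgef10, Zmiz1 and Pdpr were most like Cpd (r of 0.990, 0.988 and 0.986).

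**Figure D2:**
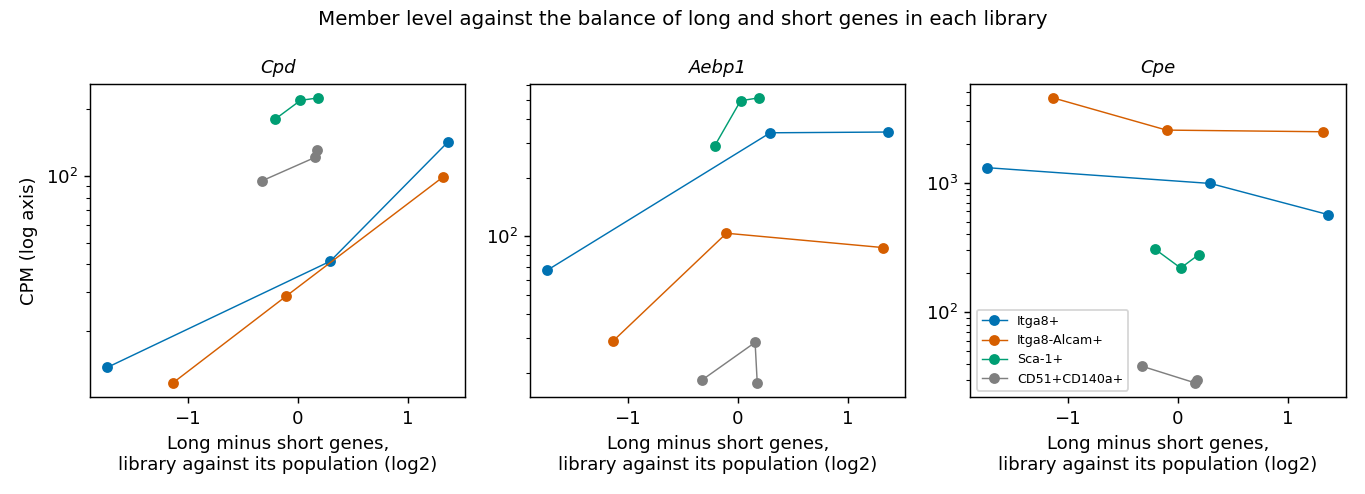
CPM (log axis) of Cpd, Aebp1 and Cpe against the balance of long and short genes, the median log2 deviation of genes with long transcripts from their population's mean minus that of genes with short ones, with the 3 libraries of a population joined by a line. Cpd goes from 13.7 to 143 CPM in Itga8+ MSCs and from 11.6 to 99.2 in Itga8- BLCs as the balance goes from -1.73 to 1.37 and from -1.13 to 1.32. Cpe falls there, from 1303 to 565 CPM and from 4504 to 2467, and the cause was not tested.

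Cpn1, the remaining catalytic gene of the family, encodes the plasma enzyme carboxypeptidase N and was at most 0.937 CPM in any library, from at most 20 counts.

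Counted over the 6 tested members, which were chosen with results known, the calls are given beside the share of all genes called. Itga8+ MSCs differed from Itga8- BLCs in 3 of the 6, with Cpxm1 higher and Cpe and Cpz lower, where 3.82% of all 18648 genes were called. With only these 2 populations fitted, Cpz alone was called, and 276 of 17328 genes were. Against Sca-1+ cells, Cpe and Cpz were higher in Itga8+ MSCs, 2 of 6, with 21.7% of all genes called, a share not far from that of the members. Against CD51+CD140a+ MSCs, 5 of 6 were called, with Cpe, Cpz, Cpm and Aebp1 higher and Cpxm1 lower, and 35.6% of all genes called. Itga8- BLCs differed from Sca-1+ cells in 4 of 6, with Cpe and Cpz higher and Aebp1 and Cpd lower (26.4% of all genes), and from CD51+CD140a+ MSCs in 5 of 6, in the same directions as Itga8+ MSCs did (35.3%). Sca-1+ cells differed from CD51+CD140a+ MSCs in 4 of 6, with Cpe, Cpm and Aebp1 higher and Cpxm1 lower (20.5%). These comparisons share libraries.

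**Figure D3:**
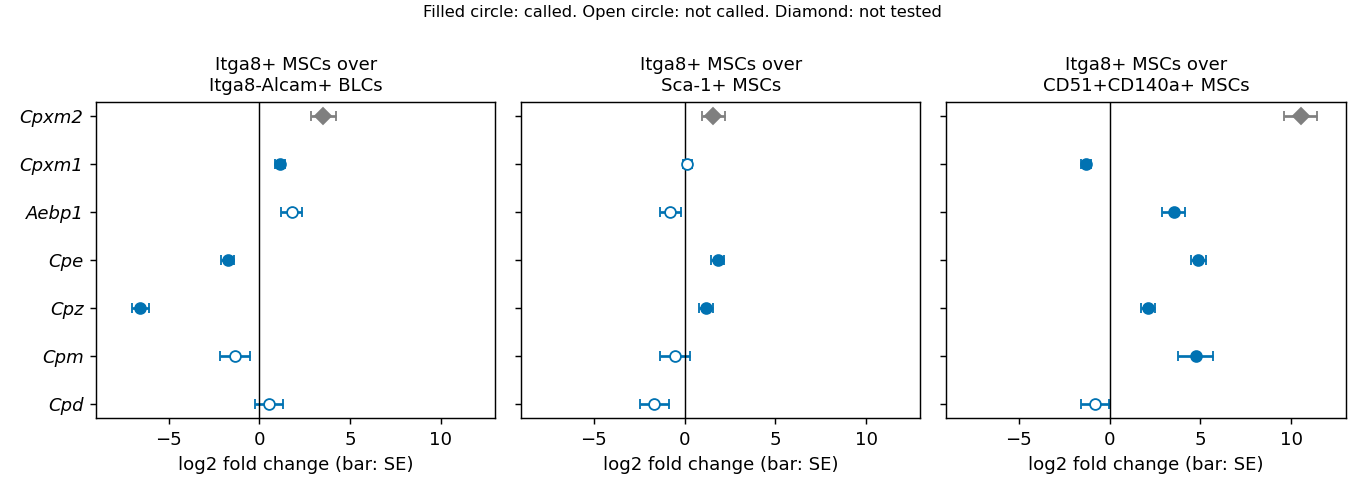
Fitted log2 fold change of Itga8+ MSCs over each other population, with bars for 1 SE. Cpxm2 (diamonds, not tested) is above 0 in all 3 panels, Cpz and Cpe lie below 0 against Itga8- BLCs and above 0 against the other populations, and Cpxm1 is below 0 only against CD51+CD140a+ MSCs.

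Per transcript length, the makeup of the family differed among the populations. In TPM, which divides counts by exon length before scaling, the 7 members summed to 5185 ± 630 (SD, n = 3) in Itga8- BLCs, 2102 ± 394 in Itga8+ MSCs, 1303 ± 123 in Sca-1+ cells and 721 ± 49.8 in CD51+CD140a+ MSCs. No libraries of different populations overlapped. Cpe held 66.2% ± 4.98 of the sum in Itga8- BLCs and Cpz 27.9% ± 5.44. In Itga8+ MSCs Cpe held 56.7% ± 18.2, Cpxm2 19.3% ± 9.43, Aebp1 10.1% ± 6.65 and Cpxm1 9.49% ± 1.51. In Sca-1+ cells Aebp1 and Cpe were level at 30.2% ± 6.79 and 29.6% ± 6.48, with Cpxm1 at 15.2% ± 3.02 and Cpxm2 at 11.5% ± 1.57. In CD51+CD140a+ MSCs Cpxm1 alone held 81.3% ± 2.05 and Cpxm2 0.0424% ± 0.0370.

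**Figure D4:**
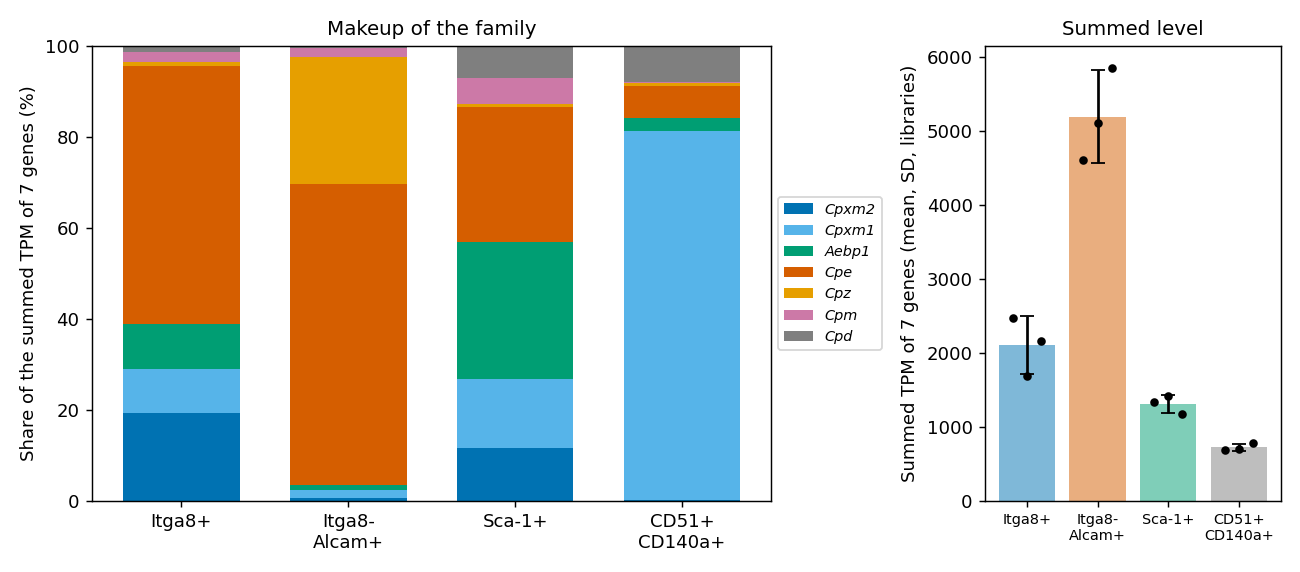
Left, mean share (%) of the summed TPM of the 7 genes held by each gene in each population. Right, the summed TPM with its mean (bar), SD and the 3 libraries (points), from 721 in CD51+CD140a+ MSCs to 5185 in Itga8- BLCs. Cpe is the largest part in both Alcam+ populations and Cpxm1 in CD51+CD140a+ MSCs.

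The genes that act beside these enzymes were taken from lists chosen with earlier results of these data known. Of 17 proprotein convertase and prohormone granule genes, 15 were tested. Against Itga8- BLCs, 2 were called, both higher in Itga8+ MSCs (median log2 fold change 0.43, against 0.08 over all genes, of which 3.82% were called). Against Sca-1+ cells, 4 were higher and 1 lower (median 0.52, against 0.16, with 21.7% of all genes called), and against CD51+CD140a+ MSCs 7 were called, all higher (1.54, against 0.18, with 35.6% called), or 5 with DESeq2. Pcsk1, Pcsk1n, Scg5 and Chgb averaged 0.251 to 3.33 CPM in Itga8+ MSCs and at most 0.171 elsewhere. They reached 0.5 CPM in Itga8+ libraries alone, so a call could only be higher there. Pcsk1n is in each count and Pcsk1 and Scg5 in the last, so the counts and medians are a description with no test. Scg3, a granule protein, was lower in Itga8+ MSCs than in Sca-1+ cells by 4.67 (2.96 ± 0.692 against 75.3 ± 9.85 CPM, SD, n = 3; adjusted p = 0.000318). Pcsk5, a convertase, was higher in Itga8+ MSCs by 1.87 (173 ± 120 against 47.1 ± 2.69 CPM, adjusted p = 0.0134). It averaged 189 CPM in Itga8- BLCs and 149 in CD51+CD140a+ MSCs. Against CD51+CD140a+ MSCs, Pcsk6 was higher in Itga8+ MSCs by 3.09 (adjusted p = 0.0102), with overlapping libraries. Its mean of 95.4 CPM in Itga8+ MSCs was below those of Itga8- BLCs (436) and Sca-1+ cells (251). Pam, which amidates peptides after carboxypeptidase trimming, was higher than in CD51+CD140a+ MSCs by 1.54 (136 ± 44.5 against 46.8 ± 9.88 CPM, adjusted p = 0.00223).

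Other metallocarboxypeptidases and their inhibitors were mostly low, with 10 of 17 tested. Of these, Cpa4 reached 0.5 CPM in Itga8+ libraries alone (mean 0.327 CPM, and at most 0.0455 elsewhere), so a call could only be higher there. In Itga8+ MSCs none was called against Itga8- BLCs by edgeR, DESeq2 or limma, and 0 had an unadjusted p under 0.05 (median log2 fold change 0.76, against 0.08 and 3.82% called over all genes), 2 were higher and 1 lower against Sca-1+ cells (0.93, against 0.16 and 21.7% called over all genes), and 4 were higher and 1 lower against CD51+CD140a+ MSCs (1.34, against 0.18 and 35.6%). Cpa6, an extracellular carboxypeptidase, averaged 26.3 ± 7.87 CPM in Itga8+ MSCs, 0.284 ± 0.445 in Sca-1+ cells and 4.13 ± 1.86 in CD51+CD140a+ MSCs (log2 differences of 6.46 and 2.67, adjusted p = 0.000921 and 0.0202). Agbl5, which acts on tubulin, was higher than in Sca-1+ cells by 1.61 (adjusted p = 0.0920), with overlapping libraries. Rarres1, a latexin-type inhibitor, was higher than in CD51+CD140a+ MSCs by 1.73 (adjusted p = 0.0360). Cpa3, the mast cell carboxypeptidase, was 0.87 to 42.1 CPM over the 12 libraries, and the 6 mast cell markers, Cpa3 included, summed to 2.02 to 57.5 CPM. Of the other markers Mcpt4 and Tpsb2 were at 0 in all libraries and Cma1 was at most 0.12 CPM, whereas Ms4a2 was 0.51 to 9.46 and Fcer1a 0 to 12.3 CPM. The part of mast cells in the Cpa3 level was not tested. Of 8 carboxypeptidases of other families 5 were tested. Prcp, a lysosomal enzyme, was lower in Itga8+ MSCs than in Itga8- BLCs by 1.28 (13.7 ± 1.86 against 33.3 ± 11.4 CPM; adjusted p = 0.0438), the only call against that population. Scpep1 was higher than in CD51+CD140a+ MSCs by 1.14 (271 ± 24.8 against 123 ± 7.75 CPM; adjusted p = 0.00235), the only call there, and none was called against Sca-1+ cells by edgeR, DESeq2 or limma, where 2 had an unadjusted p under 0.05. The medians of these 5 genes against Itga8- BLCs, Sca-1+ cells and CD51+CD140a+ MSCs were 0.32, -0.26 and -0.13, against 0.08, 0.16 and 0.18 over all genes, of which 3.82%, 21.7% and 35.6% were called.

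A list of 6 genes held 5 receptors for kinins and anaphylatoxins, whose ligands Cpm and Cpn1 can trim, and Cpn2, the regulatory subunit of carboxypeptidase N. The 5 receptors were tested and Cpn2 was too low. Between Itga8+ MSCs and Itga8- BLCs none was called by edgeR, DESeq2 or limma, and 0 had an unadjusted p under 0.05 (median -0.0034, against 0.08 and 3.82% called over all genes). Against Sca-1+ cells 2 were higher (median 1.89, against 0.16 and 21.7% called over all genes), and against CD51+CD140a+ MSCs 2 were higher and 1 lower (median 0.99, against 0.18 and 35.6%). Bdkrb1, the B1 receptor for kinins that have lost their C-terminal arginine, averaged 110 ± 24.0 CPM in Itga8+ MSCs and 142 ± 34.7 in Itga8- BLCs. It averaged 9.57 ± 3.04 CPM in Sca-1+ cells and 0.355 ± 0.587 in CD51+CD140a+ MSCs. The differences of Itga8+ MSCs from the latter 2 were 3.52 (adjusted p = 0.0196) and 8.25 (adjusted p = 0.000218). C5ar1 exceeded its level in Sca-1+ cells by 1.89 in Itga8+ MSCs (adjusted p = 0.0415), with overlapping libraries. It is a receptor of myeloid cells, and the 10 myeloid and lymphoid markers summed to 378 to 5055 CPM in Itga8+ MSCs and 175 to 618 in Sca-1+ cells, with Cd3e at 0 in all libraries. Their part in the C5ar1 difference was not tested.

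Of 12 other genes with a discoidin domain, the domain that Cpxm1, Cpxm2 and Aebp1 share, all were tested. Against Itga8- BLCs, 1 was higher in Itga8+ MSCs and 1 lower (median log2 fold change -0.11, against 0.08 and 3.82% called over all genes). Mfge8, a secreted bridging protein, was higher by 1.31 (4544 ± 451 against 1838 ± 251 CPM; adjusted p = 0.0110). Nrp2, a semaphorin and VEGF coreceptor, was lower by 3.59 (27.2 ± 29.8 against 329 ± 323 CPM; adjusted p = 0.0424). Against Sca-1+ cells, 2 were higher and 2 lower (median 1.02, against 0.16 and 21.7% over all genes), with Edil3 higher by 2.63 (186 ± 107 against 30.0 ± 7.30 CPM, adjusted p = 0.0113) and Dcbld2 lower by 2.35 (adjusted p = 0.0569). Edil3 averaged 191 ± 129 CPM in Itga8- BLCs. Against CD51+CD140a+ MSCs, 2 were higher and 5 lower (median -0.95, against 0.18 and 35.6% over all genes), with Edil3 higher by 4.91 (adjusted p = 0.000198) and Nrp1 lower by 3.93 (62.5 ± 37.5 against 953 ± 168 CPM; adjusted p = 9.58e-05).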

How the data were processed

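RNA from 2000 sorted cells per library was amplified with the SMART-Seq v4 kit, made into Nextera XT libraries and sequenced on a NextSeq instrument. The deposited values are raw counts per Ensembl gene, 1 column per library, which the authors made without normalization. The study's methods name TopHat and Bowtie2 with mm10, whereas the submitters' processing notes list FastQC 0.11.7, Trimmomatic 0.38, HISAT2 2.1.0, SAMtools 1.9 and featureCounts 1.6.3. The annotation release and the strand setting are not given in the sources used here. SMART-Seq counts come from amplified cDNA without molecular identifiers, so the floor of 3 counts covers counting error only.

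Groups and replicate numbers came from the labels. Totals ran from 17580677 to 31332475 counts. Gene names came from the gene name table, and positions, exon lengths and coding sequences from GENCODE M21 (GRCm38), which lacks 259 of the identifiers (at most 0.0163% of a library's counts). All 12 libraries entered 1 edgeR 4.0.16 quasi-likelihood fit in R 4.3.3, with TMM scaling, over the 18648 genes that reached 0.5 CPM in 1 or more libraries. P-values were adjusted by Benjamini-Hochberg within each of 6 comparisons, with calls at FDR under 0.1 and fold above 2. SEs came from the fold change and its F statistic. Levels are CPM on the TMM scale, and TPM used the union of exons. Python 3.11.15, numpy 2.4.6, pandas 2.3.3 and matplotlib 3.10.9 were used for summaries, and the count test was tested on simulated data. No 2 libraries of the same population agreed within sampling noise.

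The 7 members and all lists were chosen with earlier results of these data known. Cpxm2 was chosen by its level in these libraries and was described without a test. Named genes were the members, Cpn1, the sorting antigens, the 2 called genes of largest fold with at least 5 CPM from each list in each comparison of Itga8+ MSCs, and the 3 genes (5 for Cpxm2) most like each member by Pearson r of log2 CPM with a prior count of 2. For Cpxm2, 1 of these genes is not reported here. Genes of the marker lists were named beside the results they move with. Alternatives were DESeq2 1.42.0, limma 3.58.1 with a trend, RLE scaling, library totals alone, no filter, at least 10 counts in 3 libraries, 2 populations at a time, a replicate block, thinning to the smallest total, FDR under 0.05, each library left out, and longest transcripts for TPM. The covariate for long and short genes was chosen after seeing the data.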

Additional observations from a re-analysis of the deposited data

How the results depend on the processing

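The 6 counts of called members stayed within 1.5 times in 132 of 138 alternatives. Fitting 2 populations at a time gave 1 member in place of 3 for Itga8+ MSCs against Itga8- BLCs and 1 in place of 2 against Sca-1+ MSCs. Against Sca-1+ MSCs the count was 1 at FDR under 0.05, between 1 and 3 with a library left out, and 4 with long against short genes as a covariate. Of 924 refitted member fold changes, 2 turned direction, each in a comparison without a call, namely Cpd between Itga8+ MSCs and Itga8- BLCs (-0.75 without Itga8+ replicate 3, and up to 1.72 without another library) and Cpxm1 between Itga8+ and Sca-1+ MSCs (-0.025 without Sca-1+ replicate 3, and up to 0.31 without another). 16 calls were lost and 20 gained, and the cause was not tested. The gains with the length covariate are no independent test, since it is built from the same libraries' deviations. Of 112 TPM shares recomputed with a library left out or with the longest transcript as gene length, 110 moved by less than 1 SD. The other 2, both with the longest transcript, were those of Cpxm2 (13.3% in place of 11.5%) and Cpd (6.57% in place of 7.14%) in Sca-1+ MSCs. No direction of a member turned under RLE scaling or library totals. Library totals alone moved the median of all genes in Itga8+ MSCs against Itga8- BLCs from 0.08 to 0.34 (log2), and the share of calls that were higher from 43.5% to 61.3%.

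No source used here states that replicate numbers pair the libraries, and deviations of same-numbered libraries correlated between -0.58 and 0.20 over 18 pairs. The lowest r, -0.58 and -0.50, lay between the Itga8+ and Itga8- libraries numbered 2 and 3. Their balances of long and short genes were opposite (-1.73 and 1.32, then 1.37 and -1.13), so these r cannot settle whether libraries are paired. With a replicate block, 2 members were called for Itga8+ MSCs against Itga8- BLCs, where Cpxm1 was lost (adjusted p = 0.124), and 3 for Itga8- BLCs against Sca-1+ MSCs, where Cpd was lost (adjusted p = 0.128). The block changed no other call.

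Over all genes, Itga8+ MSCs against Itga8- BLCs gave 712 calls, 1206 with DESeq2, 1510 with the length covariate, 464 at FDR under 0.05, 276 with only the 2 populations and 433 each with the block and without Itga8- replicate 3. Against Sca-1+ MSCs the 4055 calls went to between 2386 and 2642 without a Sca-1+ library. Cpxm2 and Cpm in CD51+CD140a+ MSCs rest on 37 and 316 counts in all, in the deepest libraries of the series (29652779 to 31332475 counts). Thinning every library to the smallest total kept the direction of both genes against each other population and the 3 calls of Cpm.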
